A study of Danio rerio with 8 samples.

Results

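Tubulins, their folding cofactors, kinesins, and dynein with dynactin were followed in ribosome footprints of zebrafish embryos at 4 hours post fertilization (hpf). The members were the gene identifiers whose symbol, case ignored, starts with tuba, tubb, tubg, dync, dynl or dctn, with kif and a digit, or consists of tbc and a final letter from a to e. The gene name table held 99 such identifiers, of which 82 were in the files and 80 were measured in all 4 groups, of 33633 identifiers measured there in all. These 80 were 22 tubulins and tubulin cofactors, 37 kinesins and 21 dynein or dynactin genes. Symbols are written as the name table gives them, so many zebrafish genes carry capitals.

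The 8 samples were whole embryos in 4 groups of 2. KO_FL were embryos of genotype Ddx3xb-/Ddx3xb- injected with the construct labelled ddx3xbFL, and KO_dN were embryos of the same genotype injected with the construct labelled ddx3xb deltaN. KO were uninjected embryos of that genotype, and WT were wild type embryos. The gene ddx3xb codes for an RNA helicase of the DDX3 family, known from translation initiation. Neither the kind of mutation nor the extents of the constructs are stated, and no mutant embryos injected with a control were among the groups, so the injection and the construct cannot be told apart. Each group had 1 deposited FPKM per gene, made by the authors from both replicates. No value has a replicate error, no test was possible, and every difference described is a difference between 4 single values.

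Microtubules are hollow polymers of alpha and beta tubulin heterodimers, nucleated by gamma tubulin complexes. Kinesins are ATP-driven motors of which most walk towards the plus end, while cytoplasmic dynein, with its cofactor dynactin, walks towards the minus end. In the cleaving embryo both kinds of motor are known for building and positioning the spindles of the rapid divisions, and the microtubules and motors of the first divisions are supplied by the mother. The dynein light chains also bind many proteins outside the motor.

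FPKM, the fragments of a gene per kilobase of its transcript and relative to the mapped fragments, is a level per length and can be compared between genes. Summed over all genes it spanned 190755 in KO_dN to 2050730 in WT, so groups were compared on scaled FPKM, the deposited value divided by a factor of 0.90 for KO_FL, 0.45 for KO_dN, 0.73 for KO and 3.40 for WT. A log2 ratio is log2((a + 1)/(b + 1)) on scaled FPKM, over the 6356 genes with a mean of at least 1 scaled FPKM. A gene is counted as higher or lower where it was at least 2-fold so on that scale. The worth of a single read, taken from the commonest ratio among the lowest values, was 2.19-fold to 2.89-fold larger in WT than in the other groups in deposited FPKM. After scaling it was 0.77 of that in KO_FL, 0.29 of that in KO_dN and 0.57 of that in KO, so by this estimate low scaled values are coarsest in KO_dN. The estimate is rough, as it used genes under 0.4 FPKM in WT and 0.1 in the other group, which favours ratios above 1. Within 0.01 log2 units of the commonest ratio lay 195 of 4651 such genes for KO_FL, 103 of 3606 for KO_dN and 130 of 3973 for KO. Whether the WT values were processed like those of the other groups is not stated. In every comparison with WT, processing and genotype therefore cannot be told apart. Footprints depend on the amount of an mRNA and on its translation, and no RNA levels were used here. In whole embryos, fewer cells of a type, less mRNA per cell and fewer ribosomes per mRNA cannot be told apart.

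The blastula markers nanog, pou5f3 and sox19b stood between 6.61 and 117.9 FPKM in every group, and 0 of 7 measured markers of later tissues passed the filter, with ELAVL3 highest at 1.44 FPKM in WT. ddx3xb itself had 76.7 FPKM in KO_FL, 126 in KO_dN, 14.7 in KO and 129 in WT. Its log2 ratio of scaled FPKM was -0.88 for KO over WT, within the 5th to 95th percentile of all genes of -2.21 to 1.76, so it gives no check of that label. In the injected groups it stood above KO, by log2 ratios of 2.03 in KO_FL and 3.75 in KO_dN, and reads of the construct and of the embryo's own gene cannot be told apart.

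Of the 80 measured members, 29 passed the filter: 6 of 22 tubulins and cofactors, 14 of 37 kinesins, and 9 of 21 dynein or dynactin genes. Just inside stood KIF13A at a mean of 1.00 scaled FPKM, KIF13B (ENSDARG00000073859) at 1.01 and KIF14 at 1.05, and just outside stood kif15 at 0.86, the other KIF13B (ENSDARG00000079731) at 0.95 and KIF21B at 0.99. 3 of the 29, kif2c, KIF14 and that KIF13B inside the filter, reached 1 scaled FPKM in WT alone, so they passed through WT and had to be lower in KO by construction. kif11 too passed through WT, since its mean over the 3 mutant groups was 0.84. In the other direction DCTN2, TUBG1 and KIF13A stood under 1 scaled FPKM in WT, at 0.69, 0.69 and 0.47. They passed through the mutant groups, whose mean had to be above WT by construction. TUBB2B (ENSDARG00000039522), a beta tubulin, and DYNLT1 (ENSDARG00000045909), a dynein light chain, were listed at 0 in all groups. A second DCTN1 identifier (ENSDARG00000056753) and kif26bb stood on several lines of the WT file and were left out.

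**Figure D1:**
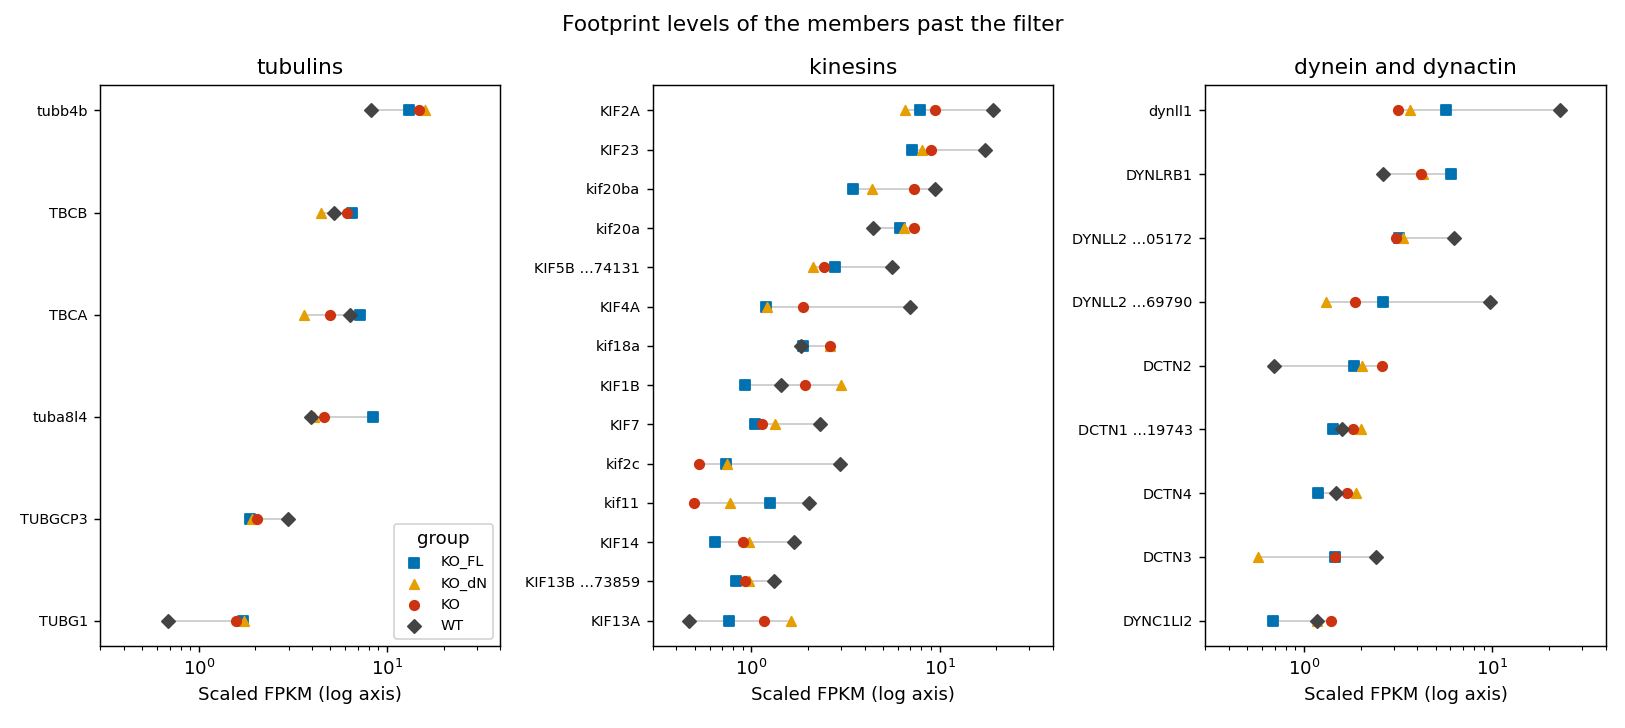
Scaled FPKM (log axis) of the 29 members past the filter, 1 row per member, with KO_FL, KO_dN, KO and WT as separate symbols and a grey line spanning the 4 values. The mutant groups lie close together for most members, and WT stands far to the right for dynll1 (3.16 in KO, 22.8 in WT).

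Among beta tubulins, the partner subunit at the growing end of the microtubule, footprints came almost wholly from tubb4b. It had 11.8 FPKM in KO_FL, 7.06 in KO_dN, 10.8 in KO and 28.0 in WT, which was 99.0%, 98.9%, 99.0% and 96.5% of the beta tubulin sum of those groups in the same order. After scaling tubb4b stood at 13.1 in KO_FL, 15.8 in KO_dN, 14.7 in KO and 8.24 in WT, so WT was lowest and the mutant groups lay together. The log2 ratio of 0.77 for KO over WT was under 2-fold. In rank it was among the top 13.2% of the 6356 genes in KO_FL, 10.7% in KO_dN, 11.7% in KO and 22.5% in WT. Of the 3 other measured beta tubulins, tubb5 was highest, with 0.97 FPKM in WT. Another 3 beta tubulin identifiers of the name table were not analysed here, so these shares refer to the 4 measured.

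Alpha tubulin, the other subunit of the heterodimer, was led by tuba8l4. It had 7.62 FPKM in KO_FL, 1.84 in KO_dN, 3.38 in KO and 13.4 in WT, and 8.45, 4.11, 4.63 and 3.93 scaled FPKM in those groups. KO_FL stood apart as the highest, while the other groups lay within a narrow range. The log2 ratios were 0.75 for KO_FL over KO and 0.89 for KO_FL over KO_dN, higher than in 91.6% and 93.5% of all genes but under 2-fold. Its share of the alpha tubulin sum was 83.4% in KO_FL, 67.9% in KO_dN, 72.8% in KO and 54.8% in WT.

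In WT a visible part of alpha tubulin came from other isotypes. tuba8l2 had 0.18 FPKM in KO_FL, 0.19 in KO_dN, 0.08 in KO and 5.84 in WT, and stood highest in WT after scaling too, at 1.72. tuba5 had 0.87 FPKM in KO_FL, 0.24 in KO_dN, 0.11 in KO and 2.84 in WT, but its scaled FPKM was 0.96 in KO_FL, 0.53 in KO_dN, 0.15 in KO and 0.84 in WT, highest in KO_FL. Both were under the filter on the mean. tuba1b had 0.11 FPKM in KO_FL, 0.13 in KO_dN and a listed 0 in KO, against 0.50 in WT. Inside a group, where no scaling enters, the summed alpha tubulin was 0.77 of the summed beta tubulin in KO_FL, 0.38 in KO_dN, 0.43 in KO and 0.84 in WT. Among the measured identifiers, KO_FL and WT were thus the groups with the more even pair. The 3 beta tubulin identifiers without values and tuba7l enter neither sum. For the leading genes alone, tuba8l4 was 0.64 of tubb4b in KO_FL, 0.26 in KO_dN, 0.31 in KO and 0.48 in WT. The value for the WT sums thus leaned on the isotypes under the filter. Tubulin isotypes have closely similar coding sequences, and how reads that match several of them were split is not stated, so the division between isotypes is uncertain.

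Tubulin dimers are assembled with folding cofactors, of which TBCB captures alpha tubulin and TBCA beta tubulin. TBCA stood at 7.20 scaled FPKM in KO_FL, 3.61 in KO_dN, 4.98 in KO and 6.32 in WT. TBCB stood at 6.52 in KO_FL, 4.45 in KO_dN, 6.14 in KO and 5.25 in WT. For both, KO_FL was highest and KO_dN lowest, with log2 ratios of KO_FL over KO_dN of 0.83 for TBCA and 0.46 for TBCB. TBCC, which acts later in the folding path, was under the filter with at most 1.49 FPKM, in WT.

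Gamma tubulin and its ring complex, which seed microtubules, were low. TUBG1 had 1.71 scaled FPKM in KO_FL, 1.73 in KO_dN, 1.57 in KO and 0.69 in WT, with WT lowest and a log2 ratio of 0.61 for KO over WT. TUBGCP3, a ring complex subunit, had 1.87 in KO_FL, 1.92 in KO_dN, 2.03 in KO and 2.98 in WT, a log2 ratio of -0.39 for KO over WT. The other 3 measured ring complex proteins (TUBGCP2, TUBGCP4 and TUBGCP5) were under the filter. As a family the 6 tubulins and cofactors had a median log2 ratio of 0.19 for KO over WT, beside -0.19 over all 6356 genes, and 0 of them were past 2-fold in either direction in any of the 4 comparisons. TUBG1 did pass it for KO over WT at 1.31 with ratios centred on deposited FPKM and at 1.08 with a pseudocount of 0.1, with which tuba8l4 passed it for KO_FL over KO_dN at 1.02. TUBG1 was kept by the filter through the mutant groups, which favoured a higher value in KO than in WT.

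**Figure D2:**
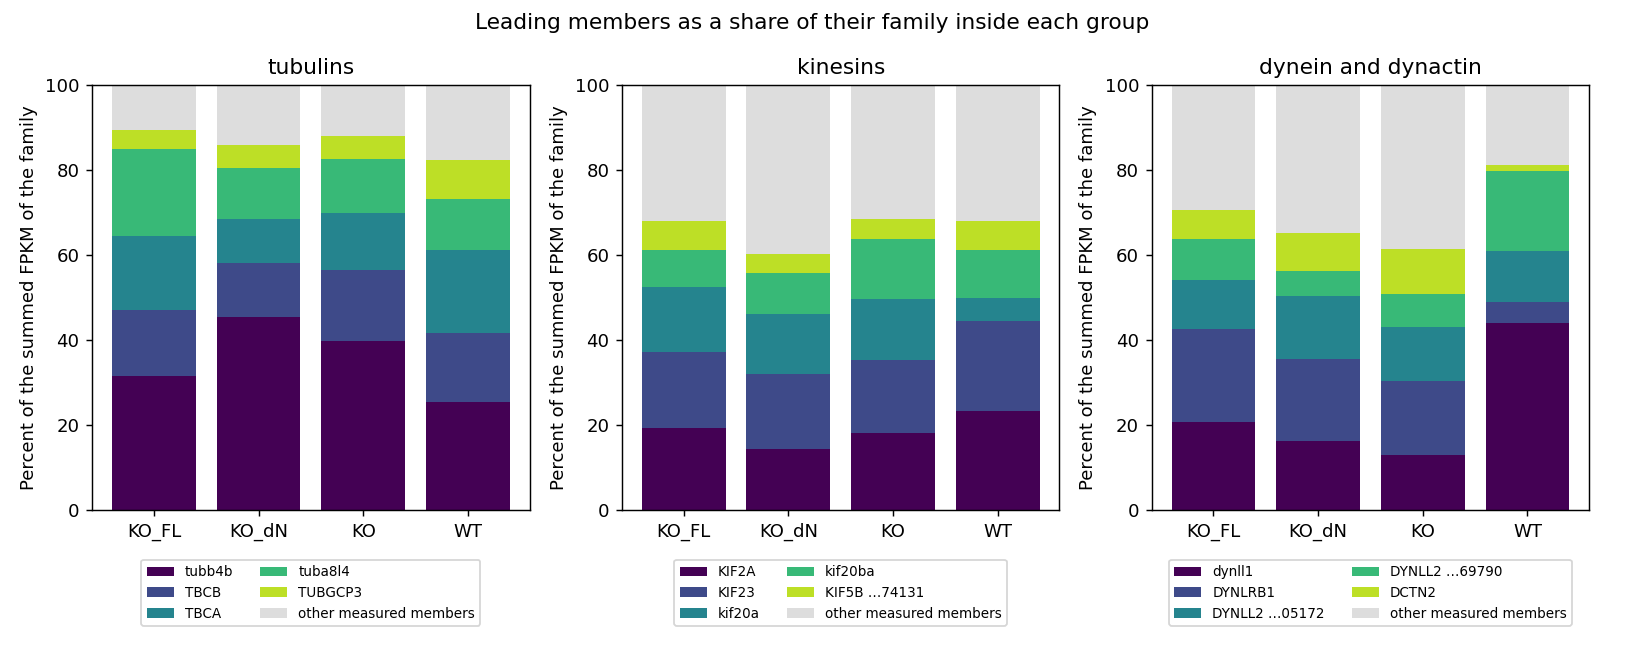
Percent of the summed FPKM of each family (bars to 100%, y axis) taken by its 5 leading members in KO_FL, KO_dN, KO and WT, with all other measured members in grey. dynll1 took 13.1% of the dynein and dynactin sum in KO and 44.0% in WT, and tubb4b took 39.9% of the tubulin sum in KO and 25.4% in WT.

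Kinesin footprints were led by KIF2A and KIF23. KIF2A, a kinesin that depolymerises microtubule ends instead of walking, had 7.10 FPKM in KO_FL, 2.92 in KO_dN, 6.86 in KO and 65.2 in WT. KIF23, the motor of the centralspindlin complex in cytokinesis, had 6.47 in KO_FL, 3.62 in KO_dN, 6.54 in KO and 58.9 in WT. After scaling KIF2A stood at 7.87, 6.53, 9.39 and 19.2 and KIF23 at 7.17, 8.11, 8.95 and 17.3 in KO_FL, KO_dN, KO and WT, so that both were highest in WT. Their log2 ratios for KO over WT were -0.96 for KIF2A and -0.88 for KIF23, both short of 2-fold. With ratios centred on deposited FPKM both passed it, at -1.13 and -1.04. KIF2A also did with a pseudocount of 0.1, at -1.02. The ratio of KIF2A to KIF23 inside a group was 1.10 in KO_FL, 0.81 in KO_dN, 1.05 in KO and 1.11 in WT.

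The 3 kinesins counted as lower in KO than in WT were KIF4A, kif2c and kif11. KIF4A, a chromosome-bound motor of the central spindle, had 1.19 scaled FPKM in KO_FL, 1.22 in KO_dN, 1.88 in KO and 7.00 in WT. kif2c, a depolymerising kinesin of the centromere, had 0.74 in KO_FL, 0.74 in KO_dN, 0.53 in KO and 2.97 in WT. kif11, the motor that pushes spindle poles apart, had 1.26 in KO_FL, 0.77 in KO_dN, 0.50 in KO and 2.03 in WT. All 3 were highest in WT, and their log2 ratios for KO over WT were -1.47, -1.38 and -1.02 in that order. None of the 3 passed when scaling and filter were taken from the mutant groups alone, but the factors, and so the level of the cutoff, are other ones there. On the scale used here, their means over the 3 mutant groups were 1.43, 0.67 and 0.84 scaled FPKM. KIF4A thus stood above 1 without WT too, and kif2c and kif11 did not. kif2c and kif11 were thus kept by the group in which they were high, and their direction is no support for a lower level of kinesins. With ratios centred on deposited FPKM kif11 stood at -0.59, short of 2-fold.

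The kif20 paralogues did not lie together. kif20a, known in mammals for cytokinesis, had 6.19 scaled FPKM in KO_FL, 6.43 in KO_dN, 7.35 in KO and 4.45 in WT, with WT lowest and a log2 ratio of 0.62 for KO over WT. kif20ba had 3.48 in KO_FL, 4.35 in KO_dN, 7.30 in KO and 9.45 in WT, the lowest values being in the injected groups. Its log2 ratios of -0.89 for KO_FL over KO and -0.63 for KO_dN over KO were lower than those of all but 4.91% and 6.14% of genes. Inside a group kif20ba was 0.56 of kif20a in KO_FL, 0.68 in KO_dN, 0.99 in KO and 2.13 in WT. The third member, kif20bb, was under the filter, with 0.49 FPKM in KO_FL, 0.15 in KO_dN, 0.11 in KO and 4.21 in WT. kif18a, a motor that limits chromosome movement at metaphase, had 1.89 scaled FPKM in KO_FL, 2.61 in KO_dN, 2.61 in KO and 1.84 in WT.

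The measured transport kinesins were mostly low. Several kinesin identifiers had no values, among them KIF5A, KIF3B and a second KIF5B (ENSDARG00000103394). KIF5B (ENSDARG00000074131), the heavy chain of conventional kinesin, had 2.80 scaled FPKM in KO_FL, 2.13 in KO_dN, 2.43 in KO and 5.59 in WT, a log2 ratio of -0.94 for KO over WT. KIF1B, a carrier of vesicles and mitochondria, had 0.93 in KO_FL, 3.00 in KO_dN, 1.93 in KO and 1.43 in WT. KO_dN was its highest group and KO_FL its lowest, and the log2 ratio of -1.05 for KO_FL over KO_dN was the one member past 2-fold between the injected groups. That call was lost with ratios centred on deposited FPKM, at -0.97, and with scaling from the mutant groups alone, at -0.90. KIF13A, a vesicle motor, had 0.76 in KO_FL, 1.62 in KO_dN, 1.17 in KO and 0.47 in WT. The remaining kinesins past the filter, KIF7, KIF14 and KIF13B, had log2 ratios of -0.63, -0.50 and -0.27 for KO over WT.

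Over the kinesins past the filter the median log2 ratio was -0.57 for KO over WT, beside -0.19 over all genes, with 0 higher, 3 lower and 11 within 2-fold, where 12.2% of all genes were higher and 20.4% lower, so the share of kinesins called lower is near that of all genes. The 8 of 10 measured mitotic kinesins that passed had a median of -0.69, and the 6 of 27 other kinesins a median of -0.45. These medians hold kif2c, kif11, KIF14 and KIF13B, which passed through WT, and KIF13A, which passed through the mutant groups. The filter itself thus favoured lower values, most of all among the mitotic kinesins, which hold kif2c, kif11 and KIF14. How much of the median it made was not tested. With a mean of at least 5, which left KIF2A, KIF23, kif20a and kif20ba, the kinesin median was -0.61, beside -0.25 over all genes. Of these, kif20a alone lay above 0. With no filter the kinesin median for KO over WT was -0.027, beside -0.043 over all genes. Most kinesins added then were below 1 FPKM in every group, where the pseudocount of 1 draws ratios towards 0. The unfiltered median therefore cannot show what the filter did to the kinesin median. KIF2A, for all its part in spindles, was counted among the other kinesins. The mitotic share of the summed kinesin FPKM was 58.3% in KO_FL, 59.1% in KO_dN, 60.2% in KO and 59.0% in WT, so the split between the classes as drawn was close in all groups. KIF2A alone took 19.5% in KO_FL, 14.3% in KO_dN, 18.1% in KO and 23.3% in WT, so that closeness depends on its class. Of the 23 kinesins under the filter, 19 were below 1 FPKM in every group, among them KIF3A, a ciliary transport motor, with at most 0.28 FPKM, in WT.

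**Figure D3:**
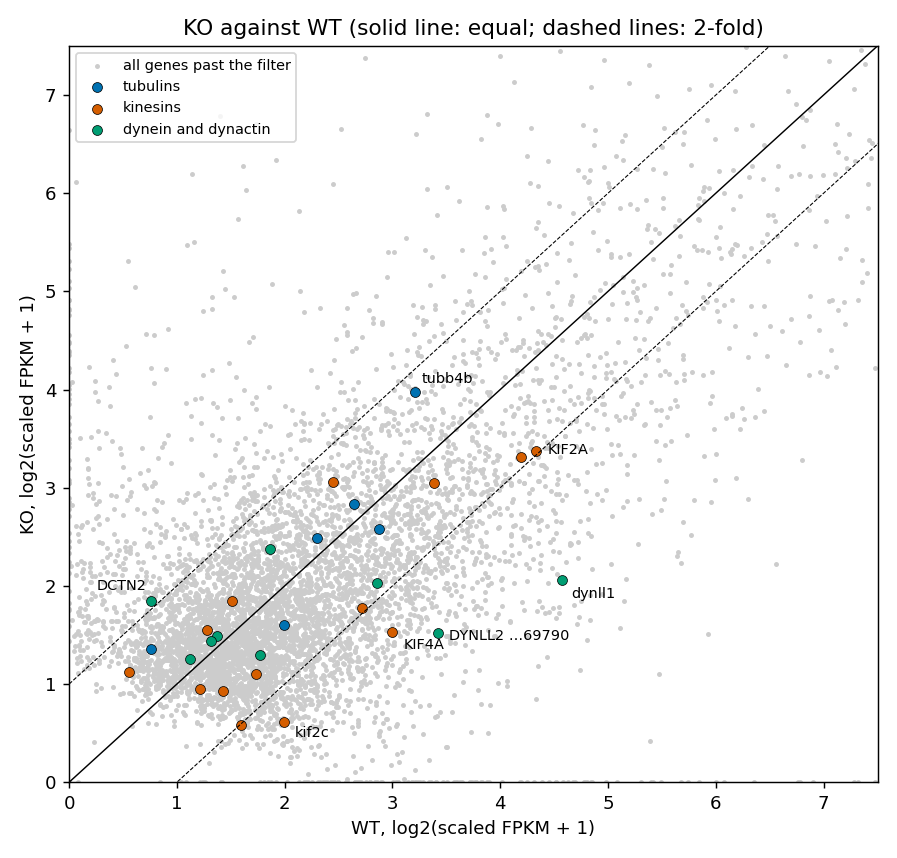
Scaled FPKM as log2(value + 1) in KO (y axis) against WT (x axis), with all 6356 genes in grey and the 29 members coloured by family; genes of higher level lie outside the plotted range. dynll1 (log2 ratio -2.52), DYNLL2 ENSDARG00000069790 (-1.91), KIF4A, kif2c and, just past it, kif11 (-1.02) lie below the lower 2-fold line, and DCTN2 (1.09) lies just above the upper one.

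For KO over WT the dynein family held the widest range of ratios of the 3 families. dynll1, the light chain that dimerises dynein intermediate chains and serves many other proteins as a hub, had 5.11 FPKM in KO_FL, 1.64 in KO_dN, 2.31 in KO and 77.5 in WT, the highest member value in the files. Scaled, it stood at 5.67 in KO_FL, 3.67 in KO_dN, 3.16 in KO and 22.8 in WT. WT was far above all mutant groups, and the log2 ratio of -2.52 for KO over WT was lower than in all but 3.46% of genes. By rank it was in the top 25.9% of genes in KO_FL, 35.9% in KO_dN, 42.2% in KO and 9.80% in WT.

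DYNLL2, the near-identical partner light chain, had 2 identifiers past the filter. ENSDARG00000069790 had 2.63 scaled FPKM in KO_FL, 1.30 in KO_dN, 1.87 in KO and 9.75 in WT, a log2 ratio of -1.91 for KO over WT. ENSDARG00000005172 had 3.20 in KO_FL, 3.36 in KO_dN, 3.07 in KO and 6.25 in WT, a log2 ratio of -0.83. Both were highest in WT, the first by more, and their ratio inside a group was 0.82 in KO_FL, 0.39 in KO_dN, 0.61 in KO and 1.56 in WT. As with the tubulins, reads that fit more than 1 of these short and similar genes make the division uncertain.

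DYNLRB1, a light chain of the roadblock class, went the other way. It had 6.01 scaled FPKM in KO_FL, 4.30 in KO_dN, 4.19 in KO and 2.63 in WT, with WT lowest and a log2 ratio of 0.52 for KO over WT. Inside a group dynll1 was 0.94 of DYNLRB1 in KO_FL, 0.85 in KO_dN, 0.75 in KO and 8.68 times it in WT. The leading light chain was therefore DYNLRB1 in the mutant groups and dynll1 in WT. Light chains made 69.9% of the dynein and dynactin sum in KO_FL, 58.1% in KO_dN, 55.8% in KO and 80.6% in WT.

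The measured subunits of the motor itself stood near or under the filter. DYNC1H1, the heavy chain that holds the ATPase, had 0.21 FPKM in KO_FL, 0.19 in KO_dN, 0.20 in KO and 0.62 in WT, under the filter. DYNC1LI2, a light intermediate chain that binds cargo adaptors, was the one cytoplasmic dynein 1 subunit to pass, with 0.69 scaled FPKM in KO_FL, 1.17 in KO_dN, 1.39 in KO and 1.17 in WT. Of cytoplasmic dynein 2, the motor of cilia, 0 of 3 measured subunits passed, the highest being DYNC2I1 with 3.07 FPKM in WT. The identifiers of dync1i2b, dync1li1 and DYNC2H1 had no values, so these statements refer to the measured subunits.

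Dynactin, which couples dynein to cargo, was low in all groups. DCTN2, the subunit also called dynamitin, had 1.85 scaled FPKM in KO_FL, 2.03 in KO_dN, 2.59 in KO and 0.69 in WT. WT was lowest, and the log2 ratio of 1.09 for KO over WT was the highest of the 29 members, higher than in 89.2% of all genes. DCTN2 passed the filter through the mutant groups, which favoured a higher value in KO than in WT. DCTN1 (ENSDARG00000019743), the subunit that binds microtubules, had 1.42 in KO_FL, 2.01 in KO_dN, 1.81 in KO and 1.59 in WT. DCTN4 had 1.20 in KO_FL, 1.88 in KO_dN, 1.70 in KO and 1.49 in WT, and its log2 ratio for KO over WT, like that of DCTN1, was 0.12. DCTN3, a small subunit of the shoulder, had 1.47 in KO_FL, 0.57 in KO_dN, 1.46 in KO and 2.41 in WT, with KO_dN lowest and a log2 ratio of -0.65 for KO_dN over KO. DCTN5 was under the filter, with at most 0.94 FPKM, in WT.

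Set against all genes, the count of members for KO over WT was 1 higher (DCTN2) and 5 lower (dynll1, DYNLL2, KIF4A, kif2c and kif11) of 29, where 12.2% of all genes were higher and 20.4% lower. With ratios centred on deposited FPKM, the split was 3 higher and 6 lower, where 19.5% of all genes were higher and 19.1% lower. The lower ones then held KIF2A and KIF23 but not kif11. With a pseudocount of 5, dynll1 at -1.77 and DYNLL2 (ENSDARG00000069790) at -1.10 were the 2 calls kept. The median over the 29 was -0.29, beside -0.19 over all genes. By family the medians were 0.19 for tubulins and cofactors, -0.57 for kinesins and 0.12 for dynein and dynactin. Without the filter tubulins stood at -0.02 and dynein and dynactin at -0.02, beside -0.04 over all genes. Most members added then were below 1 FPKM in every group, where the pseudocount draws ratios towards 0, so this turn of sign is no check. Of 6 enveloping layer markers 3 were lower in KO than in WT, and their summed level was 45.1 scaled FPKM in KO and 88.5 in WT. The 3 blastula markers lay the other way, all above 0, with nanog higher at 1.43. Their sums were 148.2 in KO and 73.0 in WT. Of 3 yolk syncytial layer markers 1 was lower, with sums of 113.8 in KO and 124.8 in WT. Most of both sums was ctsla, with a log2 ratio of -0.02, while mxtx1 stood at -2.37 and apoeb at -0.85. None of these markers was at 0, and their part in the member values was not tested.

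For KO_FL over KO, 0 members were higher and 0 lower, where 5.55% and 3.90% of all genes were. Member ratios ran from -0.89 in kif20ba to 0.75 in tuba8l4, with dynll1 at 0.68, kif11 at 0.59 and KIF1B at -0.61. The family medians were 0.08 for tubulins, -0.22 for kinesins and 0.01 for dynein and dynactin, beside 0.00 over all genes, and 11 of 14 kinesins lay below 0. Markers of other embryonic layers differed in the same comparison. Of 6 enveloping layer markers 4 were higher in KO_FL, none was at 0, and their summed level was 87.6 scaled FPKM in KO_FL and 45.1 in KO. Of 3 yolk syncytial layer markers 2 were higher, none was at 0, and the sums were 161.4 in KO_FL and 113.8 in KO. The 3 blastula markers had 0 higher and 0 lower, and their sums lay the other way, at 131.4 in KO_FL and 148.2 in KO. How far these markers bear on the member values was not tested.

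For KO_dN over KO, 0 members were higher and 0 lower, where 3.04% and 2.17% of all genes were. The ratios ran from -0.65 in DCTN3 to 0.45 in KIF1B, and the family medians were -0.10, 0.02 and 0.03 for tubulins, kinesins and dynein with dynactin, beside -0.03 over all genes. For KO_FL over KO_dN, 0 members were higher and 1, KIF1B, was lower, where 5.33% and 4.88% of all genes were. The highest ratios were tuba8l4 at 0.89, TBCA at 0.83 and DYNLL2 (ENSDARG00000069790) at 0.66. The same 6 enveloping layer markers had 4 higher, with sums of 87.6 scaled FPKM in KO_FL and 37.9 in KO_dN, and the yolk syncytial layer markers had 2 of 3 higher, with sums of 161.4 and 95.8. The 3 blastula markers had 0 higher and 0 lower, with sums of 131.4 in KO_FL and 143.9 in KO_dN. The comparisons share groups: KO enters 3 of them, and their ratios are not independent of each other.

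**Figure D4:**
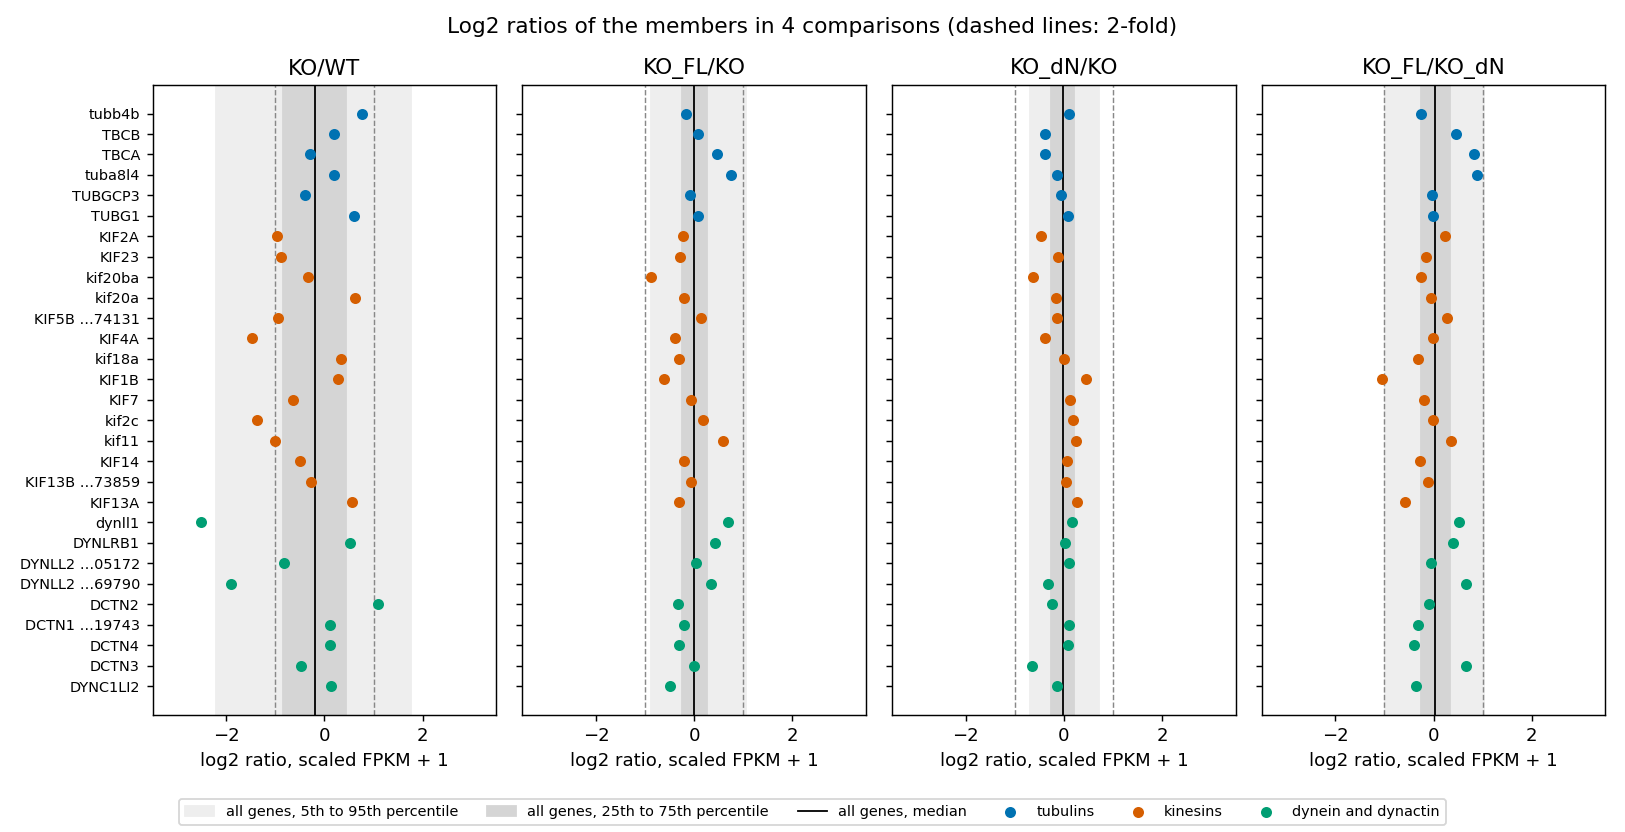
Log2 ratios of scaled FPKM + 1 (x axis) of the 29 members, 1 row each, in KO/WT, KO_FL/KO, KO_dN/KO and KO_FL/KO_dN. Grey bands hold the middle of all 6356 genes and dashed lines mark 2-fold; the spread of members is widest in KO/WT, from -2.52 to 1.09, and 0 members leave the 2-fold lines in KO_FL/KO and KO_dN/KO.

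Levels of the 29 members, as log2(scaled FPKM + 1), correlated across genes with a Pearson r of 0.91 between KO_FL and KO, 0.95 between KO_dN and KO, and 0.88 between KO_dN and KO_FL. The r was 0.70 between KO_FL and WT, 0.57 between KO_dN and WT, and 0.65 between KO and WT. By family, r between KO and WT was 0.87 over 6 tubulins, 0.80 over 14 kinesins and 0.37 over 9 dynein or dynactin genes. Genes are not independent replicates, and the members of a group share its libraries and its scaling.

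The CCT chaperonin folds tubulin before the cofactors act. All 7 measured subunits passed, 0 higher and 1 lower in KO than in WT, where 12.2% of all genes were higher and 20.4% lower. The median log2 ratio was -0.52, beside -0.19 over all genes. The lower one was cct2 (ENSDARG00000087206), with 3.61 FPKM in KO_FL, 1.82 in KO_dN, 2.25 in KO and 70.7 in WT, a log2 ratio of -2.42 for KO over WT. The highest ratio was TCP1 at 0.93. By the mean of scaled FPKM over the 4 groups the most abundant subunits were CCT8, cct2 and CCT7, cct2 through its level in WT, while TCP1 was above cct2 in KO_FL, KO_dN and KO. For KO_FL over KO the list's median was 0.13, for KO_dN over KO 0.03, and 0 subunits passed 2-fold in either.

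Spindle and microtubule-associated factors were a second list, of which 20 of 39 measured passed. For KO over WT 1 was higher, mapre1b, a plus-end binding protein, at 1.12, and 4 were lower. The lower ones were STMN1, which sequesters tubulin dimers, at -2.89, the mitotic kinases aurka at -1.92 and AURKB at -1.08, and cenpe, a kinetochore kinesin, at -1.52. With 1.20 FPKM in KO_FL, 0.36 in KO_dN, 0.53 in KO and 13.5 in WT, cenpe passed through WT, so the filter favoured its direction. Of all genes 12.2% were higher and 20.4% lower, so the list's counts are near those shares. nedd1 (-0.97) and ZW10 (-0.07) passed through WT too, their means over the mutant groups being under the filter. haus7 (0.26), under 1 scaled FPKM in WT, passed through the mutant groups. The list's median, with all of these in it, was -0.56, beside -0.19 over all genes. By the mean of scaled FPKM over the 4 groups TPX2, the activator of aurora A at the spindle, led at 78.9, with 40.9 FPKM in KO_FL, 32.0 in KO_dN, 52.5 in KO and 430 in WT. STMN1 (ENSDARG00000004169) was next by that mean, at 56.4, with 40.9 in KO_FL, 11.0 in KO_dN, 13.0 in KO and 469 in WT. It stood above TPX2 in WT and well below it in KO and KO_dN. mapre1b was the third by that mean, at 13.9, but not in every group.

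In KO_FL over KO, 3 of the 20 were higher, CLASP1 at 1.68, STMN1 at 1.30 and aurka at 1.04, and 0 were lower, with a median of 0.00, where 5.55% of all genes were higher and 3.90% lower. In KO_dN over KO there were 0 higher and 0 lower, beside 3.04% and 2.17% of all genes, with a median of 0.08. In KO_FL over KO_dN, CLASP1, which stabilises plus ends, was higher at 1.32 and 0 were lower, beside 5.33% and 4.88% of all genes. The names beyond the 3 most abundant and the extreme ratios of the lists were chosen after their values were seen.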

How the data were processed

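Ribosome footprints from 8 samples in 4 groups were analysed from the deposited FPKM, 1 value per gene and group, which the authors made from both replicates per the series design text. Per the submitters' processing notes, the build was Zv9 and the tools included Cufflinks 2.2.1, TopHat2 2.1.1, Bowtie, Trimmomatic 0.36 and cutadapt 1.13, without settings. The label polyA RNA does not match the RNase I footprint protocol, which was followed. Depth in reads is unknown, so no interval was computed. FPKM divides by all mapped reads, so reads outside the listed genes lower every value of a group. The WT file listed 101 identifiers on several lines and lacked 3, and these were left out. Groups came from the genotype labels and titles.

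Scaling factors were medians of ratios over the 3177 genes that reached 1 FPKM in every group. Ratios used a pseudocount of 1, which understates folds of low genes, and a filter on a mean of at least 1 scaled FPKM. Named were all passing tubulins, cofactors, dynein and dynactin genes, kinesins with a mean of at least 5, and the 3 highest and 3 lowest ratios of each family in each comparison. 6 alternatives were tried, and 1 more, chosen after seeing the data. Code (Python 3.11.15, pandas 2.3.3, numpy 2.4.6) was tested on simulated data. Members and lists were chosen with earlier results of these data known. No sequences or coordinates were used here.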

Additional observations from a re-analysis of the deposited data

How the results depend on the processing

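No paired analysis was possible because each group has 1 deposited value made from both replicates, and for the same reason no replicate could be left out. None of the 7 members past 2-fold changed sign under any alternative that kept it. Family medians close to 0 did change sign: for KO over WT without the filter the tubulins stood at -0.02 and dynein and dynactin at -0.02. The median over all genes was then -0.04. Most members added without the filter were below 1 FPKM in every group, where the pseudocount of 1 draws ratios towards 0. Before centring, the median gene stood at -1.95 on the log2 scale for KO over WT in deposited FPKM, against -0.19 after scaling.

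With ratios centred on deposited FPKM, the dynein and dynactin median for KO over WT was 0.49 (0.12 as reported). The all-gene median beside it was 0 by construction (-0.19 as reported). For KO over WT 3 members were higher, and for KO_FL over KO_dN 0 were lower. Of all genes 19.5% were then higher for KO over WT and 3.71% lower for KO_FL over KO_dN. With a pseudocount of 0.1, the kinesin median for KO over WT was -0.89, beside -0.26 over all genes. There were 3 members higher and 8 lower, where 17.3% of all genes were higher and 27.5% lower. The counts of higher and lower members were then 1 and 1 for KO_FL over KO and 2 and 2 for KO_FL over KO_dN, and 1 was lower for KO_dN over KO. The shares of all genes were 8.79% and 7.03% for KO_FL over KO and 8.87% and 7.77% for KO_FL over KO_dN. For KO_dN over KO 4.70% of all genes were lower. With a pseudocount of 5, that kinesin median was -0.24, beside -0.09 over all genes. Of the members 0 were higher and 2 lower (dynll1 and DYNLL2 ENSDARG00000069790), and 0 were lower for KO_FL over KO_dN. Of all genes 5.11% were higher and 8.65% lower for KO over WT, and 2.01% lower for KO_FL over KO_dN. Without the filter, over 78 members, the kinesin median for KO over WT was -0.027, beside -0.043 over all genes. Both are drawn towards 0 by genes near 0 FPKM under the pseudocount of 1, so this is no check of the filtered median. For KO_FL over KO_dN 1 member was then higher, beside 1.52% of all genes.

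With a mean of at least 5, 9 members were left, and dynll1 alone of its family. Its ratios of -2.52 for KO over WT, 0.68 for KO_FL over KO and 0.51 for KO_FL over KO_dN then stood as the family medians, the kinesin median was -0.32 for KO_dN over KO (0.02 as reported) and the tubulin median 0.65 for KO_FL over KO_dN. For KO over WT 0 members were higher and 1 lower, and for KO_FL over KO_dN 0 were lower. The shares of all genes were 19.9% and 28.0% for KO over WT, and 7.16% lower for KO_FL over KO_dN. Summing repeated identifiers moved none of these. Scaling and filtering without WT, chosen after seeing the data, left 0 lower for KO_FL over KO_dN, beside 5.26% of all genes. Of the 7 calls, 5 were kept when centred, 2 with a pseudocount of 5, and 7 each with a pseudocount of 0.1, no filter, or summed identifiers.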
